A study of Mus musculus with 12 samples.

Results

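The genes of the mouse MHC class II family and their coactivator were followed in RNA from tumor-associated macrophages (TAMs). The 10 genes, chosen by symbol out of 55401 genes in each of the study's count tables, are Ciita, H2-Aa, H2-Ab1, H2-Eb1, Cd74, H2-DMa, H2-DMb1, H2-DMb2, H2-Oa and H2-Ob. The family was singled out because H2-Aa and Cd74 were already known to lead the rise in AMPK-KO TAMs, so its values in that comparison are given as a description with no test. Each gene occupied 1 row of each table, and all 10 passed the filter on low counts in both.

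TAMs were sorted by flow cytometry as CD45+CD11b+Ly6C-Ly6G-F4/80+ cells from subcutaneous tumors of B16-F10, a mouse melanoma line, grown in 5-week-old mice on the C57BL/6 background. The methods give this gate, while legends of the supplement write Ly6C+. It held no antibody against class II or CD11c. In the first experiment, early-stage TAMs (3 libraries, day 8) were set against late-stage TAMs (3 libraries, day 15), both from mice labelled WT. In the second, at day 15, TAMs of AMPKfl/fl mice (WT, 3 libraries) were set against TAMs of AMPKfl/flLyz2cre/cre mice (AMPK-KO, 3 libraries). AMPK is a kinase that senses low cellular energy, both groups of the second experiment carry the floxed AMPK allele, and Lyz2cre deletes it in myeloid cells, neutrophils and monocytes as well as macrophages. No treatment was given, and neither the labels nor the methods say which animals, or how many, went into a library, so p-values measure the spread between these libraries.

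MHC class II molecules are heterodimers on the surface of antigen-presenting cells that show peptides from the endocytic route to CD4+ T cells. CIITA does not bind DNA itself but is recruited by RFX, CREB and NF-Y proteins to the X and Y boxes of class II promoters, and in macrophages its own gene is induced by interferon gamma through IRF1 among other factors. The invariant chain, encoded by Cd74, holds the empty groove of new class II molecules, H2-DM exchanges its last fragment for peptide, and H2-DO restrains H2-DM. Class II is carried by dendritic cells and B cells as well as by activated macrophages.

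Ciita (ENSMUSG00000022504.10) lies on chromosome 16 (chr16:10480059-10528418, plus strand) of the mouse build GRCm38. H2-Oa, H2-DMa, H2-DMb2, H2-DMb1, H2-Ob, H2-Ab1, H2-Aa and H2-Eb1 lie in this order on chromosome 17, from the first base of H2-Oa at 34092340 to the last base of H2-Eb1 at 34316674. Of them, H2-Aa (ENSMUSG00000036594.15, chr17:34282744-34287823) is the sole gene on the minus strand. Cd74 (ENSMUSG00000024610.15) lies on another chromosome. H2-DMb1 and H2-DMb2 encode near-identical beta chains, and 22.7% of the 50-base words in the exons of H2-DMb1 also occur in H2-DMb2, so reads could be shared between them. No other pair of the 10 genes shared a 50-base word. How the counting treated strand and shared reads is not given in the sources used here, and genes on the opposite strand overlap exons of H2-DMa (Brd2, 360 bases), H2-Oa (BC051537, 321 bases) and Ciita (Dexi, 329 bases).

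Letters of the X and Y boxes, through which CIITA acts, were looked for in the promoters of the family, and the stretches that hold them are shown because several members have them in common. RefSeq promoter windows on GRCm38.p6, running from 250 bases before to 50 bases after the start site, were at hand for 7 of the genes (8 windows, since H2-DMa had 2). H2-Ab1, Cd74 and Ciita had no entry. The letters were chosen after these windows had been read, on both strands. The X core, AAC and TGATG with any 3 bases between them, was in 4 of the 8 windows and in 0.615% of all 32851 windows. The shorter RFX-type letters GCAAC, which overlap the X core in H2-Ob and H2-Eb1, were in 5 of the 8 and in 35.2% of all. The Y box ATTGG was in 7 of the 8 and in 37.4% of all, and the CREB-type letters TGACGTCA were in the window of H2-Aa and in 1.79% of all. An X core or GCAAC with a Y box at most 40 bases downstream on the same strand was found in 6 of the 8 windows and in 0.834% of all. In each line the capitals mark the X core or GCAAC, the CREB-type letters and the Y box, written 5′ to 3′ on the strand of the gene.
H2-Eb1 (chr17:34305766-34305812, plus strand): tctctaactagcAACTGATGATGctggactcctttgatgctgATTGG
H2-DMb2 (chr17:34145116-34145163, plus strand): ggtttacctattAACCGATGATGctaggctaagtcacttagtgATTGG
H2-Ob (chr17:34238808-34238852, plus strand): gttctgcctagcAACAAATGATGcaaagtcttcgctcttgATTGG
H2-Aa (chr17:34287867-34287916, minus strand): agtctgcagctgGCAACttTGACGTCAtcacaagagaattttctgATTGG
H2-Oa (chr17:34092291-34092340, plus strand): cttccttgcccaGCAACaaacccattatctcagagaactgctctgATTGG

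From the end of the X core to the Y box there were 17 bases in H2-Ob, 19 in H2-Eb1, and 20 in H2-DMb2 and H2-DMb1. From the end of the shorter letters GCAAC there were 28 bases in H2-Aa and H2-Oa. As the X core is longer than GCAAC, the spacings of these sets of genes cannot be compared with each other. The Y box ended 38 to 85 bases before the start site. The stretch of H2-DMb1 lies inside the annotated first exon and is not printed. In H2-DMa, 1 window held GCAAC and the other the Y box, and neither held both. These matches are letters in a window and were not tested for binding.

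The libraries were deep and even, with total counts from 77155066 to 84470374 (median 83517781) in early-stage, 79623704 to 82499295 (median 82483094) in late-stage, 71019494 to 81671067 (median 73365844) in WT and 73669620 to 80911139 (median 80107499) in AMPK-KO TAMs. Prkaa1, which encodes the catalytic subunit AMPKα1, fell from 4535 to 5165 counts in the WT libraries to between 3285 and 3467 in the AMPK-KO libraries (log2 fold change -0.60 ± 0.073 SE, adjusted p = 2.26e-04, edgeR quasi-likelihood test). Lyz2, the locus that the cre allele interrupts, had 671 to 975 counts in the libraries labelled WT and 676 to 1088 in those labelled AMPK-KO, against 204851 to 249165 in the early-stage and 88212 to 93224 in the late-stage libraries. The WT libraries were thus as low in Lyz2 as the AMPK-KO libraries, although their label gives them no cre allele. The 4 Y-linked genes followed had 3435 to 4035 counts in the early-stage and 0 to 4 in the late-stage libraries, so stage and sex cannot be told apart, whereas both WT (9229 to 11360) and AMPK-KO libraries (11299 to 12183) had them. The methods name female C57BL/6J hosts. As bulk RNA, the libraries do not tell fewer cells of a type from less RNA per cell.

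Per exon length, as TPM (counts divided by exon length and scaled to the same total in each library, mean ± SD, n = 3 libraries), the levels of the family in WT TAMs spanned from Cd74 at 6131 ± 95.8 to H2-Oa at 6.10 ± 0.28. The classical chains came next to Cd74, with H2-Eb1 at 1930 ± 55.6, H2-Ab1 at 1533 ± 49.5 and H2-Aa at 921 ± 14.5 TPM. H2-DMb1 had 252 ± 3.9, H2-DMa 131 ± 1.6, H2-DMb2 35.4 ± 6.7, Ciita 23.1 ± 2.1 and H2-Ob 6.18 ± 0.46 TPM. The order of the 10 levels was the same in early-stage, late-stage and AMPK-KO TAMs, except that H2-Oa stood above H2-Ob there. Neighbours in the order overlapped between libraries in 2 places, H2-Eb1 with H2-Ab1 in early-stage TAMs and H2-Ob with H2-Oa in WT TAMs. The coactivator was thus among the lowest of the family per exon length in each group. The TPM of H2-Aa were 35.9 to 44.1 times those of Ciita in early-stage, WT and AMPK-KO libraries. In late-stage libraries they were 32.4 to 40.6 times those of Ciita. The exon length merges all annotated exons of a gene, with 3798 bases for H2-Aa, 9535 for Ciita, 2568 for H2-Ab1, 1944 for H2-Eb1 and 1679 for Cd74. It can exceed the length of the main transcript, so the order of the genes and the ratios between them depend on it.

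**Figure D1:**
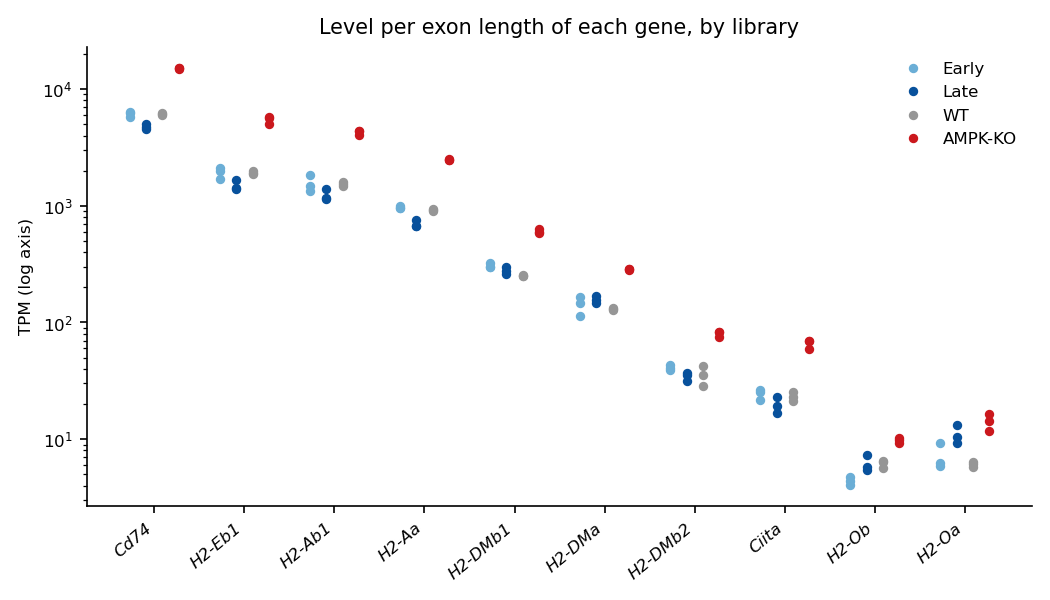
Level of each gene per exon length (TPM, log axis) in each of the 12 libraries, ordered by level and coloured by group. Cd74 was the highest in each group, from 4762 TPM in late-stage to 15090 TPM in AMPK-KO TAMs, and the H2-DO genes H2-Oa and H2-Ob the lowest.

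In AMPK-KO TAMs the whole family stood higher than in WT TAMs. All 10 genes were higher in every AMPK-KO library than in every WT library, and such separation of the groups was seen for 37.2% of all genes tested. Their log2 fold changes ran from 0.61 to 1.47 with a median of 1.23, against a median of -0.0037 over all 17532 genes tested. All 10 had an adjusted p under 0.05, as did 21.1% of all genes tested (11.3% higher and 9.78% lower), and 9 also had a log2 fold change above 1, as did 2.05% (1.28% were below -1). The family had been picked for this contrast, so nothing is read from these counts. Together the 10 genes took 1.92% to 2.07% of all counts in AMPK-KO libraries and 0.770% to 0.819% in WT libraries. Markers of dendritic cells (11 of 12), T cells (6 of 6) and NK cells (5 of 5) rose in the same libraries and those of B cells (8 of 10) fell.

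In the late-stage TAMs of the first experiment, 3 of the 10 genes, H2-Aa, H2-Eb1 and Cd74, fell against early-stage TAMs with an adjusted p under 0.05, as did 4.88% of all genes tested in that direction (4.31% rose and 9.18% changed in either). None of the 10 passed a fold change of 1 on the log2 scale, as 0.601% of all genes did upward and 1.26% downward. The median log2 fold change of the family was -0.36 (range -0.55 to 0.56) against 0.0027 over all 17630 genes tested, and 9 of the 10 had an unadjusted p under 0.05, as did 24.5% of all genes tested. Early and late libraries did not overlap for 8 genes, 7 lower and 1 higher, as for 31.2% of all genes tested. The share of all counts was 0.758% to 0.887% in early-stage and 0.592% to 0.660% in late-stage libraries. Monocyte (4 of 5), NK cell (4 of 5), neutrophil (2 of 4 tested) and melanoma markers (4 of 6) fell in the same libraries. B cell (4 of 10) and T cell markers (2 of 6) rose, and of 12 dendritic cell markers 5 rose and 2 fell. Counts of Y-linked genes also set early from late libraries, so differences with stage, here and below, cannot be told apart from differences of sex. The experiments were tabulated and fitted separately, and no test compared them.

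**Figure D2:**
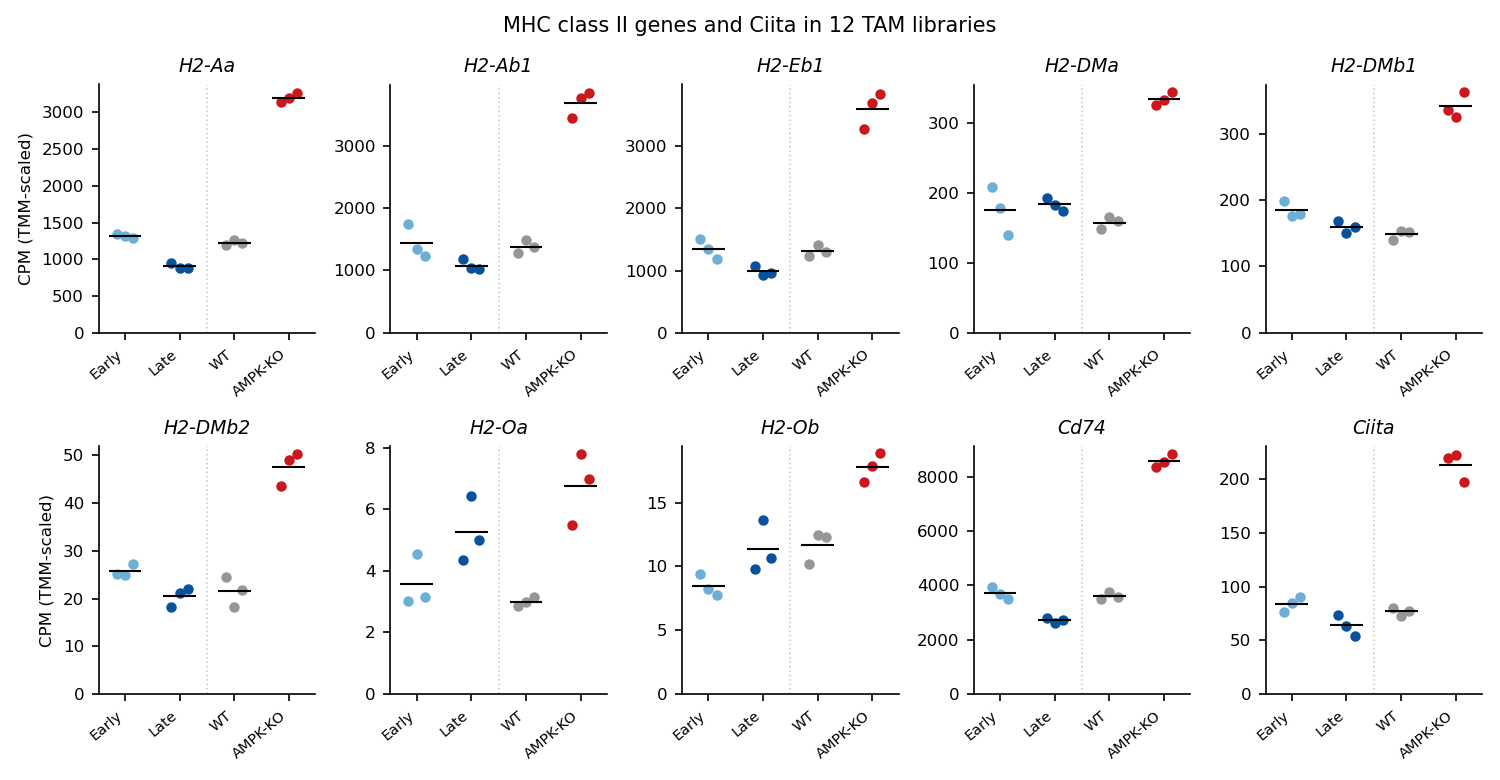
Level (CPM, scaled by TMM factors) of the 10 genes in each library, with 1 point per library and a line at the group mean; the dotted line separates the experiments. In each panel the 3 AMPK-KO libraries lie above the 3 WT libraries, while late-stage libraries lie below early-stage ones in 7 panels, above them for H2-Ob, and overlap them for H2-DMa and H2-Oa.

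Levels of each gene across libraries are given as CPM, counts scaled with TMM factors to a common library total, which do not allow for gene length. Ciita, the coactivator, had 80.4, 73.0 and 77.2 CPM in WT replicates 1 to 3 and 220, 222 and 197 CPM in AMPK-KO replicates 1 to 3. The means were 76.8 ± 3.7 and 213 ± 14.1 CPM (SD, n = 3 each), a fold change of 2.77 (log2 1.47 ± 0.063 SE) that was close to that of H2-Eb1. In early-stage libraries Ciita had 76.3, 84.8 and 90.4 CPM, and in late-stage libraries 73.6, 63.4 and 54.4 CPM. Each late library was below each early one, as for 15.6% of all genes tested. The difference did not pass the test over all genes (log2 fold change -0.39 ± 0.11 SE, adjusted p = 0.0626). The call was gained without early-stage replicate 1 (adjusted p = 0.033), without late-stage replicate 1 (0.0437) and with DESeq2 (0.0117).

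Of the classical chains, H2-Aa, the alpha chain of the I-A molecule, had 1187, 1257 and 1224 CPM in WT and 3137, 3194 and 3261 CPM in AMPK-KO libraries. The means were 2.62-fold apart (log2 1.39 ± 0.038 SE). In early-stage libraries H2-Aa had 1339, 1320 and 1295 CPM and in late-stage libraries 949, 879 and 880 CPM. H2-Aa fell to 0.68 of the early level (log2 fold change -0.55 ± 0.064 SE, adjusted p = 7.89e-04), the clearest change of the family with stage, and it passed under each of the 12 alternatives (adjusted p from 1.24e-10 to 0.0137).

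H2-Ab1, the beta chain that pairs with H2-Aa, had 1274, 1481 and 1380 CPM in WT and 3452, 3774 and 3846 CPM in AMPK-KO libraries, 2.68-fold apart (log2 1.42 ± 0.060 SE). Its early-stage values of 1746, 1342 and 1228 CPM were spread more widely than those of its partner, and its late-stage values were 1182, 1033 and 1016 CPM. Replicate 1 was the highest library in both stages. The difference with stage did not pass the test (log2 fold change -0.42 ± 0.12 SE, adjusted p = 0.0666), except without early-stage replicate 3 (0.0152), with the replicate number as a block (0.0218) and with DESeq2 (0.0065). The TPM of H2-Ab1 were 1.59 to 1.74 times those of H2-Aa in WT and 1.63 to 1.75 times in AMPK-KO libraries. They were 1.40 to 1.93 times in early-stage and 1.71 to 1.84 times in late-stage libraries.

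H2-Eb1, the beta chain of the I-E molecule, had 1238, 1409 and 1293 CPM in WT and 3278, 3694 and 3850 CPM in AMPK-KO libraries, 2.75-fold apart (log2 1.46 ± 0.065 SE). It had 1511, 1343 and 1186 CPM in early-stage and 1069, 932 and 953 CPM in late-stage libraries. H2-Eb1 fell with stage (log2 fold change -0.45 ± 0.096 SE, adjusted p = 0.0187), but the call was lost without early-stage replicate 2 (0.0767), late-stage replicate 2 (0.102) or late-stage replicate 3 (0.0959), and with no filter on low counts (0.0582). The I-E alpha chain is not made on the C57BL/6 background, and its locus H2-Ea had 0 counts in 10 libraries, 3 in late-stage replicate 2 and 4 in WT replicate 1. The other beta chain locus, H2-Eb2, had 3.52 to 4.64 CPM in WT and 4.47 to 5.52 CPM in AMPK-KO libraries (log2 fold change 0.28 ± 0.16 SE, adjusted p = 0.26), and 5.6 to 6.82 CPM in early-stage and 6.39 to 7.45 CPM in late-stage libraries (0.23 ± 0.15 SE, adjusted p = 0.37).

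Cd74, the invariant chain, was the most abundant transcript of the family, with 3483, 3750 and 3567 CPM in WT and 8358, 8534 and 8820 CPM in AMPK-KO libraries, 2.38-fold apart (log2 1.25 ± 0.038 SE). It alone took 0.837% to 0.881% of all counts in AMPK-KO and 0.353% to 0.369% in WT libraries. Its values were 3935, 3681 and 3499 CPM in early-stage and 2816, 2607 and 2728 CPM in late-stage libraries. Cd74 fell with stage (log2 fold change -0.45 ± 0.068 SE, adjusted p = 0.00339) and did so under each of the 12 alternatives (adjusted p from 1.72e-06 to 0.0376). The TPM of Cd74 were 6.59 to 6.75 times those of H2-Aa in WT and 6.03 to 6.12 times in AMPK-KO libraries, ranges that did not overlap. They were 6.11 to 6.65 times in early-stage and 6.71 to 7.02 times in late-stage libraries, which did not overlap either. Such ratios were not surveyed over all genes, so nothing is read from these separations.

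The peptide exchange factor H2-DM is built from the alpha chain H2-DMa and the beta chains H2-DMb1 or H2-DMb2. H2-DMa had 148, 166 and 160 CPM in WT and 327, 334 and 346 CPM in AMPK-KO libraries (log2 fold change 1.09 ± 0.053 SE). H2-DMb1 had 139.8, 154 and 152 CPM in WT and 337, 327 and 364 CPM in AMPK-KO libraries (1.21 ± 0.058 SE). H2-DMb2, far lower, had 24.5, 18.2 and 21.8 CPM in WT and 43.5, 49.0 and 50.3 CPM in AMPK-KO libraries (1.15 ± 0.11 SE). The 3 chains rose by less than the classical chains on this scale. The groups were apart for each of them, as for 37.2% of all genes tested.

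With stage the H2-DM chains did not move together. H2-DMa had 209, 179 and 139.7 CPM in early-stage and 194, 183 and 175 CPM in late-stage libraries, so the late libraries lay within the early range (log2 fold change 0.065 ± 0.13 SE, adjusted p = 0.804). Its sign rested on early-stage replicate 3, the lowest library, without which it was -0.08 (adjusted p = 0.649). H2-DMb1 had 199, 176 and 179 CPM in early-stage and 168, 151 and 159.7 CPM in late-stage libraries (-0.21 ± 0.077 SE, adjusted p = 0.126). H2-DMb2 had 25.1, 24.9 and 27.2 CPM in early-stage and 18.3, 21.1 and 22.1 CPM in late-stage libraries (-0.33 ± 0.11 SE, adjusted p = 0.0862, or 0.0411 with DESeq2). Neither beta chain overlapped between stages, a separation seen downward for 15.6% of all genes tested, and neither passed the test. In TPM, H2-DMb2 stood at 10.5% to 16.9% of H2-DMb1 over the 12 libraries, a share that reads common to both genes could alter.

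H2-DO, the inhibitor of H2-DM, is typical of B cells and some dendritic cells, and its chains were the rarest of the family. H2-Oa had 206, 215 and 258 counts in WT and 406, 626 and 565 counts in AMPK-KO libraries, or 2.86 to 3.16 against 5.50 to 7.80 CPM (log2 fold change 1.17 ± 0.16 SE). H2-Ob had 10.2, 12.5 and 12.3 CPM in WT and 16.6, 17.8 and 18.9 CPM in AMPK-KO libraries, and its 1.52-fold difference (log2 0.61 ± 0.11 SE) was the smallest of the family and the one under 2-fold. H2-Oa stood at 91.1% to 107.8% of the H2-Ob level per exon length in WT and at 127% to 167% in AMPK-KO libraries.

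The H2-DO chains were also the members whose late-stage means lay well above their early-stage means. H2-Oa had 3.02, 4.54 and 3.14 CPM in early-stage and 4.36, 6.42 and 5.01 CPM in late-stage libraries, which overlapped (log2 fold change 0.56 ± 0.22 SE, adjusted p = 0.15). H2-Ob had 9.37, 8.24 and 7.78 CPM in early-stage and 9.80, 13.6 and 10.7 CPM in late-stage libraries, which did not overlap (0.42 ± 0.15 SE, adjusted p = 0.12). Neither passed the test under any of the 12 alternatives, and 15.6% of all genes tested were apart upward with stage. As a share of H2-DM (summed TPM of each), H2-DO stood at 2.01%, 2.78% and 2.26% in early-stage libraries. In late-stage libraries the share was 2.95%, 4.57% and 3.5%, which did not overlap the early values. It was 2.80% to 3.04% in WT against 2.18% to 2.77% in AMPK-KO libraries, where the AMPK-KO range lay just below. Such shares were not surveyed over all genes, so nothing is read from these separations. B cell markers summed to 86.4 to 102.5 CPM in early-stage and 110.0 to 151 CPM in late-stage libraries, and their part in the H2-DO levels with stage was not tested. The sum was 69.0 to 75.7 CPM in WT and 54.7 to 55.7 CPM in AMPK-KO libraries. It was carried there by Cd79b and Cd22, while the median log2 fold change of the B cell markers was -3.85. The part of B cells or dendritic cells in the H2-DO levels of that experiment was not tested either.

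**Figure D3:**
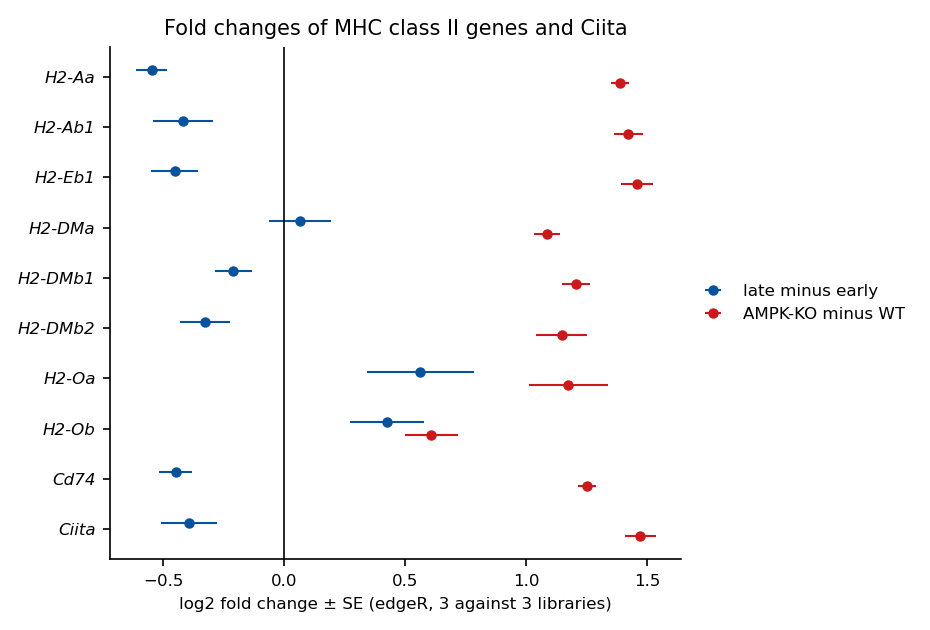
Log2 fold change ± SE of each gene from edgeR fits of 3 against 3 libraries, late minus early in blue and AMPK-KO minus WT in red. The red points lie between 0.61 and 1.47, with H2-Ob apart from the rest, and the blue points below zero except for H2-DMa, H2-Oa and H2-Ob.

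Around the mean of their own group, over the 12 libraries, the more abundant chains moved together, with a Pearson r of 0.95 for H2-Eb1 and Cd74, 0.93 for H2-Ab1 and H2-Eb1, and 0.90 for H2-Ab1 and H2-DMa. H2-Oa and H2-Ob, at low counts, had an r of 0.48, and H2-DMb2 went against H2-Aa (-0.66). Ciita had an r of 0.16 with H2-Aa, -0.23 with H2-Ab1, -0.25 with H2-Eb1 and -0.38 with Cd74. These values describe differences between libraries of the same group, and carry no test. For H2-Ab1 (1228 to 1746 CPM) and H2-DMa (139.7 to 208.7 CPM) the differences were widest, relative to level, among the early-stage libraries.

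Next came the factors that sit with CIITA on the promoter. Of the 7 genes of RFX, NF-Y and CREB (Rfx5, Rfxap, Rfxank, Nfya, Nfyb, Nfyc and Creb1), 1 passed the test in AMPK-KO TAMs, where 21.1% of all genes did. With stage none passed, against 9.18% of all genes, and 1 had an unadjusted p under 0.05, against 24.5%. Their median log2 fold change was 0.022 in AMPK-KO and 0.0059 in late-stage TAMs. Creb1 rose in AMPK-KO TAMs from 47.7 to 50.4 CPM in WT to between 53.4 and 63.8 CPM (log2 fold change 0.27 ± 0.074 SE, adjusted p = 0.0256). Rfx5, the DNA-binding RFX subunit, had 12.7 to 17.0 CPM in WT and 18.1 to 22.1 CPM in AMPK-KO libraries (0.38 ± 0.12 SE, adjusted p = 0.0516).

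Of 12 genes of interferon gamma signaling and of factors that drive or restrain Ciita, 9 rose in AMPK-KO TAMs and none fell, with 0.49 as the median log2 fold change, while 11.3% of all genes tested rose. Irf1, an inducer of the interferon-responsive Ciita promoter, rose from 142 to 145 CPM in WT to between 288 and 310.2 CPM in AMPK-KO libraries (log2 fold change 1.06 ± 0.047 SE, adjusted p = 3.30e-07). Socs1, a feedback inhibitor of the interferon gamma receptor, had the largest change of the list (1.5 ± 0.097 SE, adjusted p = 3.05e-06), from 13.1 to 16.7 CPM to between 40 and 44.8 CPM. Irf8, a myeloid factor, rose by 0.40 ± 0.043 SE (adjusted p = 9.53e-05). Ifngr1, Jak2, Irf2, Irf4 and Prdm1, a repressor of Ciita, also rose, by log2 fold changes from 0.37 to 0.62, while Ifngr2, Jak1 and Spi1 did not pass the test.

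With stage, 1 of these 12 genes passed, as did 9.18% of all genes tested, and 3 had an unadjusted p under 0.05, as did 24.5% of all genes. The gene that passed was Ifngr1, a chain of the interferon gamma receptor, which fell from 143 to 147 CPM in early-stage to between 121 and 125 CPM in late-stage libraries (log2 fold change -0.24 ± 0.064 SE, adjusted p = 0.0474). The median of the list was -0.11. Irf1 had 162 to 226 CPM in early-stage and 156 to 179.8 CPM in late-stage libraries, which overlapped (-0.23 ± 0.12 SE, adjusted p = 0.271).

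**Figure D4:**
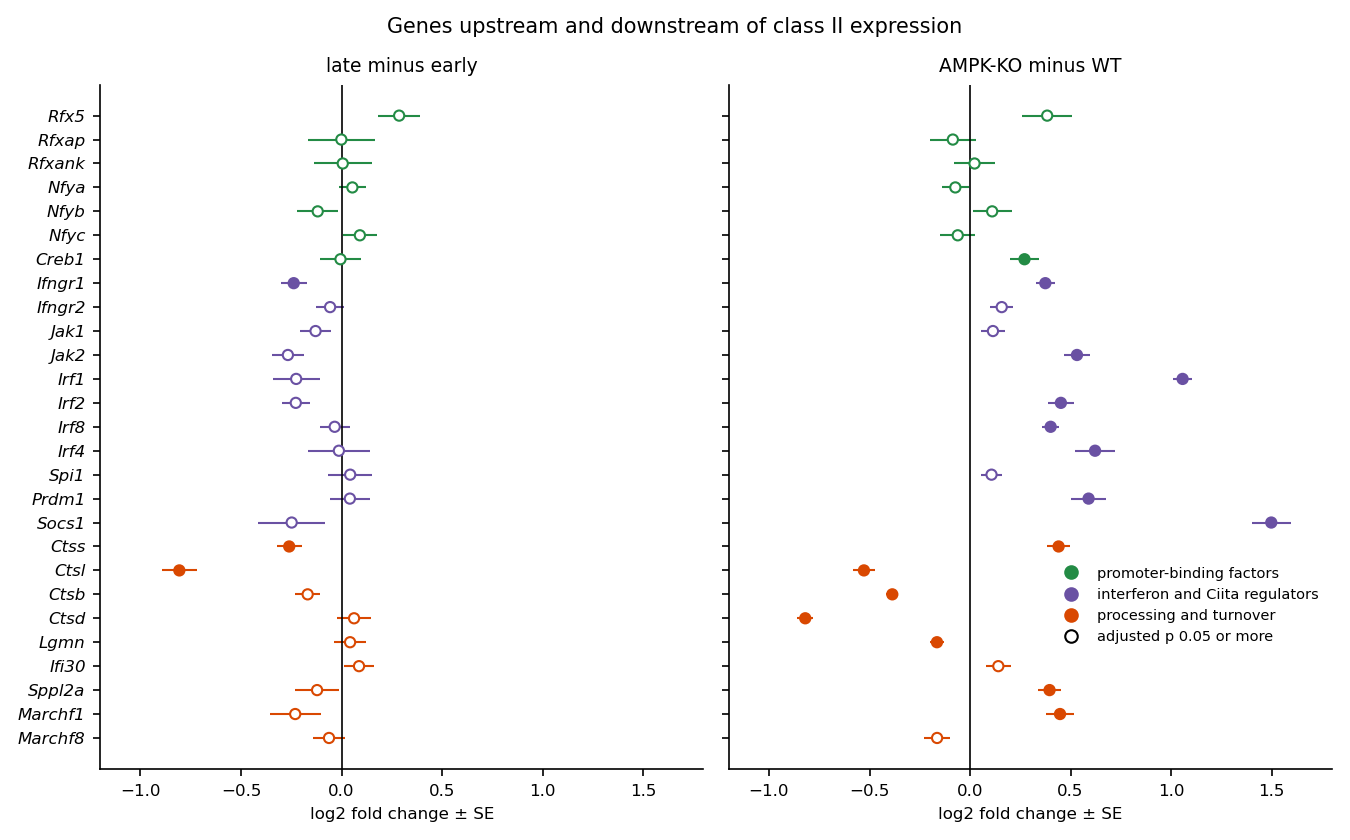
Log2 fold change ± SE of genes around class II expression, late minus early (left) and AMPK-KO minus WT (right), coloured by list, with filled points for an adjusted p under 0.05. On the right, Socs1 (1.5) and Irf1 (1.06) lie farthest to the right and Ctsd (-0.82) farthest to the left, and on the left Ctsl (-0.81) stands apart.

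The enzymes that process antigen and invariant chain divided in AMPK-KO TAMs. Of 9 such genes, 3 rose, as did 11.3% of all genes tested, and 4 fell, as did 9.78%, and the median log2 fold change was -0.16. Ctss, the protease that trims the invariant chain to its last fragment, rose (0.44 ± 0.057 SE, adjusted p = 3.58e-04), as did Sppl2a, which cuts its membrane stub (0.40 ± 0.058 SE, adjusted p = 7.81e-04), and Marchf1, the ubiquitin ligase that removes class II from the surface (0.45 ± 0.068 SE, adjusted p = 9.80e-04). The endosomal proteases Ctsd (-0.82 ± 0.039 SE, adjusted p = 4.90e-07), Ctsb (-0.39 ± 0.031 SE, adjusted p = 1.21e-05), Ctsl (-0.53 ± 0.054 SE, adjusted p = 6.65e-05) and Lgmn (-0.16 ± 0.036 SE, adjusted p = 0.00852) fell. The reductase gene Ifi30 and the ligase gene Marchf8 did not pass.

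With stage, 2 of the 9 fell, as did 4.88% of all genes tested, Ctsl (-0.81 ± 0.086 SE, adjusted p = 4.68e-04) and Ctss (-0.26 ± 0.063 SE, adjusted p = 0.031), and the median was -0.12. The 28 genes of these lists were counted together with the loci H2-Eb2 and H2-Ea, neither of which was called. The 3 called with stage were a share near the 9.18% of all genes. They became 1 without early-stage replicate 2, without any one of the late-stage libraries, with the block and with no filter on low counts. They became 6 without early-stage replicate 1 and 5 without early-stage replicate 3. In AMPK-KO TAMs 17 were called, where 21.1% of all genes tested were, and the count stayed between 16 and 18.

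Other cells that use class II were looked for by their markers. Macrophage markers were abundant throughout, their 10 genes summing to 12560 to 13960 CPM in WT and 12730 to 13100 CPM in AMPK-KO libraries, and to 9721 to 12150 CPM in early-stage and 12750 to 12840 CPM in late-stage libraries. In AMPK-KO TAMs Itgam (log2 fold change 0.55) and Csf1r (0.14) rose and Cd68 (-0.55) fell, and with stage C1qa rose (0.49), while the other macrophage markers did not pass. Of 12 conventional dendritic cell markers, 11 rose in AMPK-KO TAMs, as did 11.3% of all genes tested, and 1 fell, as did 9.78%. Their sum moved from 379 to 397 CPM in WT to between 566 and 608 CPM. Itgax, which macrophages also express, gave the largest part of that gain, from a mean of 119 to 254 CPM. The defining markers were low but rose, Clec9a from 3.49 to 4.83 CPM to between 9.57 and 12 CPM (log2 fold change 1.38, adjusted p = 1.28e-04), Xcr1 by 1.02 (adjusted p = 6.17e-04), Zbtb46 by 0.52 (adjusted p = 0.01) and Flt3 by 0.33 (adjusted p = 0.0393). The part of dendritic cells in the higher class II levels was not tested.

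B cell markers went the other way in AMPK-KO TAMs. Of the 10, 8 fell, as did 9.78% of all genes tested, and 1 rose, as did 11.3%. The defining markers were close to absent from the AMPK-KO libraries. These libraries held 0, 0 and 8 counts of Pax5, 7, 8 and 10 of Cd79a, and 17, 45 and 31 of Ms4a1. In WT libraries the same genes had 182 to 266, 320 to 457 and 202 to 296 counts. The sum of the list, from 69.0 to 75.7 CPM in WT to between 54.7 and 55.7 CPM in AMPK-KO libraries, was carried by Cd79b and Cd22. T cell (6 of 6), NK cell (5 of 5), monocyte (3 of 5) and neutrophil markers (3 of 5 tested) also rose in AMPK-KO TAMs, melanoma markers fell (6 of 6), and of 5 plasmacytoid dendritic cell markers tested 1 rose and 1 fell.

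With stage, the sum of the dendritic cell markers was 474 to 491 CPM in early-stage and 727 to 775 CPM in late-stage libraries. Of the 12, 5 were higher, as were 4.31% of all genes tested, and 2 lower, as were 4.88%. Flt3, Zbtb46, Xcr1 and Clec9a did not pass. The sum was carried by Cadm1 (means of 116 and 246 CPM), Fscn1 (103 and 173 CPM) and Itgax (129 and 190.0 CPM). The 2 lower markers were Cd209a (means of 14.96 and 6.80 CPM, log2 fold change -1.14, adjusted p = 0.00151) and Dpp4 (15.03 and 9.97 CPM, -0.59, adjusted p = 0.0296). Of the B cell markers 4 of 10 rose, among them Pax5 (log2 fold change 0.93, adjusted p = 0.0295), whereas Ms4a1 (0.45, adjusted p = 0.365) and Cd79a (0.82, adjusted p = 0.108) did not pass. Monocyte markers fell (4 of 5), from a sum of 1221 to 1418 CPM to between 599 and 746 CPM, as did NK cell (4 of 5), neutrophil (2 of 4 tested) and melanoma markers (4 of 6), while T cell markers rose (2 of 6) and no plasmacytoid marker passed. The part of these cells in the class II levels was not tested.

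**Figure D5:**
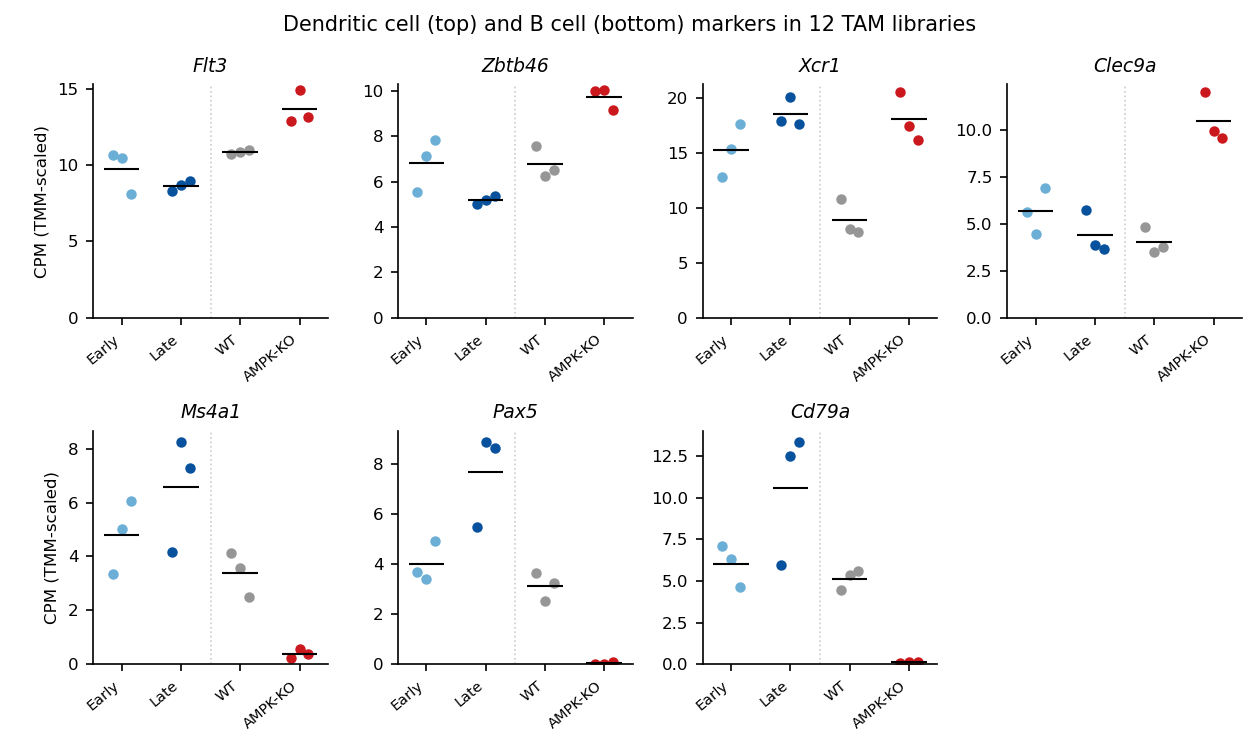
CPM (TMM-scaled) of 4 dendritic cell markers (top) and 3 B cell markers (bottom) in each library, with a line at the group mean and a dotted line between the experiments. The 3 AMPK-KO libraries are above the WT libraries in each upper panel, and near 0 in each lower panel.

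The genes whose levels were most like the mean profile of the 10, among 16802 genes in both fits and by Pearson r of log2 CPM over the 12 libraries, each centred on its own table, were Gdpd3 (r = 0.992), Calhm6 (0.991), AW112010 (0.989), Sema4d (0.988) and Nuak2 (0.986). Gdpd3 had 2.60 ± 0.60 CPM in WT and 38.8 ± 4.2 CPM in AMPK-KO libraries, and 5.62 ± 0.70 in early-stage and 3.08 ± 0.47 CPM in late-stage libraries (SD, n = 3 each). AW112010 had 77.5 ± 5.3 and 208 ± 17.8 CPM in the former pair of groups and 131 ± 1.1 and 109 ± 0.8 CPM in the latter. Calhm6 had 27.5 ± 1.8 and 66.0 ± 4.9 CPM in WT and AMPK-KO libraries, and Sema4d (136 against 222 CPM) and Nuak2 (35.2 against 54.4 CPM) differed less. Early-stage and late-stage means were closer, at 51.8 and 43.8 CPM for Calhm6, 168 and 157 CPM for Sema4d, and 33.8 and 30.6 CPM for Nuak2. These genes were chosen for their likeness, so their differences carry no test.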

How the data were processed

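RNA of sorted TAMs was sequenced on an Illumina NovaSeq. The authors mapped reads with HISAT2 and deposited raw counts per gene from featureCounts, 1 table per experiment. Versions, strand setting and the handling of shared reads are not given in the sources used here. The methods write GRCh38 for the mouse genome, but 54349 of the 55401 identifiers, all members included, match GENCODE M21 of GRCm38 with their version. No column of values was left unused (0).

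Each table was fitted on its own with edgeR 4.0.16 in R 4.3.3 (filterByExpr, TMM, glmQLFit, glmQLFTest, no covariates), with Benjamini-Hochberg adjustment over all genes tested and a threshold of 0.05. The SE is the log2 fold change divided by the square root of F. CPM are TMM-scaled, and TPM use the summed length of all annotated exons of a gene, merged, in GENCODE M21. Log2 CPM had a prior count of 2. The fits were tested on simulated data. Replicates of a group correlated at 0.970 to 0.984, and none was a duplicate.

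The members and lists were chosen with earlier results of these data known. Named are the 10 members, up to 4 list genes per list and comparison with the smallest adjusted p, the defining dendritic and B cell markers, Prkaa1, Lyz2, and the 5 genes most like the members. As alternatives, TMM was replaced by RLE or by upper-quartile factors, edgeR by DESeq2 1.42.0, the filter by none or by a minimum of 10 counts per library, a block for the replicate number was added, and single libraries were left out. Plots used matplotlib 3.10.9. Other marker genes and list genes were named after their values were seen. Some genes that these lists and rules cover are counted but not reported here by name.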

Additional observations from a re-analysis of the deposited data

How the results depend on the processing

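In AMPK-KO TAMs the values of the 10 class II genes describe the contrast they were picked for, and nothing is read from their calls under the alternatives. Upper-quartile factors shifted the median over all genes by -0.0143 with stage and -0.0138 in AMPK-KO TAMs, and RLE factors shifted it less. With stage, 3 class II genes were called, against 6 with DESeq2, 4 with the replicate block, 2 with no filter on low counts and 2 to 4 when a library was left out. The 3 called genes of the pathway lists became 1 with no filter on low counts, 1 with the replicate block and 1 to 6 when a library was left out. Over all genes with stage, 1619 calls became 2467 with DESeq2, 936 with no filter on low counts, 1417 with the replicate block and 653 (without late-stage replicate 2) to 2835 (without early-stage replicate 1) when a library was left out. In AMPK-KO TAMs the 3693 calls became 3862 with the replicate block and 2414 (without WT replicate 3) to 4039 when a library was left out, and 2419 without AMPK-KO replicate 2. The pathway count of 17 there was 18 with the block. H2-DMa with stage ran from -0.077 (without early-stage replicate 3) to 0.209 (without early-stage replicate 1). The ratio of the highest to the lowest member level in WT TAMs was 1033 ± 79.9 in TPM and 1201 in CPM, which does not account for gene length. The labels do not say whether the replicate numbers pair the libraries. Same-numbered libraries had r between -0.0039 and 0.042 for their deviations, and unlike-numbered ones between -0.061 and 0.047. These values show no shared deviation but cannot tell whether libraries were paired, so the block rests on the number alone. The cause of these shifts was not tested. At this depth the H2-DO genes, with 206 to 626 counts of H2-Oa in the AMPK-KO experiment, are the least precise values.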
